A study of Penicillium oxalicum with 6 samples.

Results

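A set of 132 genes of the filamentous fungus Penicillium oxalicum, moderately expressed in wild-type mycelium and lower after deletion of PoxTMA7, was described gene by gene and library by library. The members were chosen from the measured values of all 6 libraries. A member had a mean of at least 5 and under 40 FPKM in the wild type (fragments per kilobase of gene, scaled to sequencing depth), a mutant mean of at most 0.5 times the wild-type mean, and every mutant value below every wild-type value. In all, 9137 gene identifiers were listed in 1 or more libraries. Of these, 3690 had a wild-type mean in this range, and the 132 members are 3.58% of those.

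Messenger RNA from mycelia was sequenced from a PoxTMA7 deletion mutant made in the wild-type background (ΔPoxTMA7, 3 libraries) and from the wild type (WT, 3 libraries), strain HP7-1 per the series title. Both groups shared the culture steps. These were 4 days on plates at 28 °C, 24 h in glucose medium, and 24 h after transfer to medium with 1% Avicel, a microcrystalline cellulose. The treatment protocol names raw starch instead of Avicel, and this disagreement was not resolved. The labels do not say whether the 3 libraries of a genotype came from separate cultures, or whether the mutant is 1 transformant, so the spread given here is that between libraries.

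Fungi of this kind secrete cellulases and xylanases that cut the polysaccharides of plant cell walls into sugars they can take up, and they switch the genes for these enzymes on when such a polymer replaces glucose. The name TMA7 comes from budding yeast, in which it stands for a small protein found together with ribosomes, the translation machinery. The study compared the strains to ask how PoxTMA7 bears on cellulase and xylanase production. The deposited tables give identifiers without gene names, products or positions, and none of the 9137 identifiers, members included, matched the 9964 genes of the RefSeq table for assembly ASM172317v3. The members are therefore given by identifier, no role is assigned to any of them, and PoxTMA7 itself was not tied to an identifier, so the deletion was not checked on its own transcript.

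The totals behind the FPKM values, recovered from the steps between low values, were 13269238 to 20808413 reads in the ΔPoxTMA7 libraries and 11665908 to 16508834 in the WT libraries. On log2(FPKM + 1) across 6743 expressed genes, the WT libraries correlated among themselves at 0.993 to 0.995 and ΔPoxTMA7 replicates 2 and 3 at 0.991. ΔPoxTMA7 replicate 1 stood apart, at 0.976 with replicate 2 and 0.971 with replicate 3; genes are not independent, and these values only describe the libraries. For named members in which that library was at least 2 times, or at most 0.5 times, the mean of the other mutant libraries, the level kept is also given without it.

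In the mutant the members kept a median of 36.1% of their WT mean. The lowest kept 0.47% and the quartiles lay at 27.4% and 45.0%. The rule set the upper end at 50%, so these figures describe the choice and were not tested. Over all 3690 genes of the same WT range, the median was 107.4%. A ratio of at most 0.1 was seen in 11 members, a ratio over 0.1 and up to 0.25 in 17, over 0.25 and up to 0.4 in 52, and over 0.4 in 52. In extracts of whole mycelium, fewer cells expressing a gene and less RNA per cell cannot be told apart.

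Summed over the 132 members, the level was 898.2, 687.4 and 691.3 FPKM in ΔPoxTMA7 replicates 1, 2 and 3, against 2297, 2086 and 2369 FPKM in WT replicates 1, 2 and 3. The members held 0.37%, 0.278% and 0.283% of the FPKM sum of the 3 ΔPoxTMA7 libraries, against 0.933%, 0.853% and 0.965% in the 3 WT libraries. The median member stood at 5.12, 4.25 and 4.41 FPKM in the mutant libraries and at 15.1, 13.7 and 16.2 FPKM in the WT libraries. The sums of the 2 genotypes did not overlap, as the rule requires of every member.

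**Figure D1:**
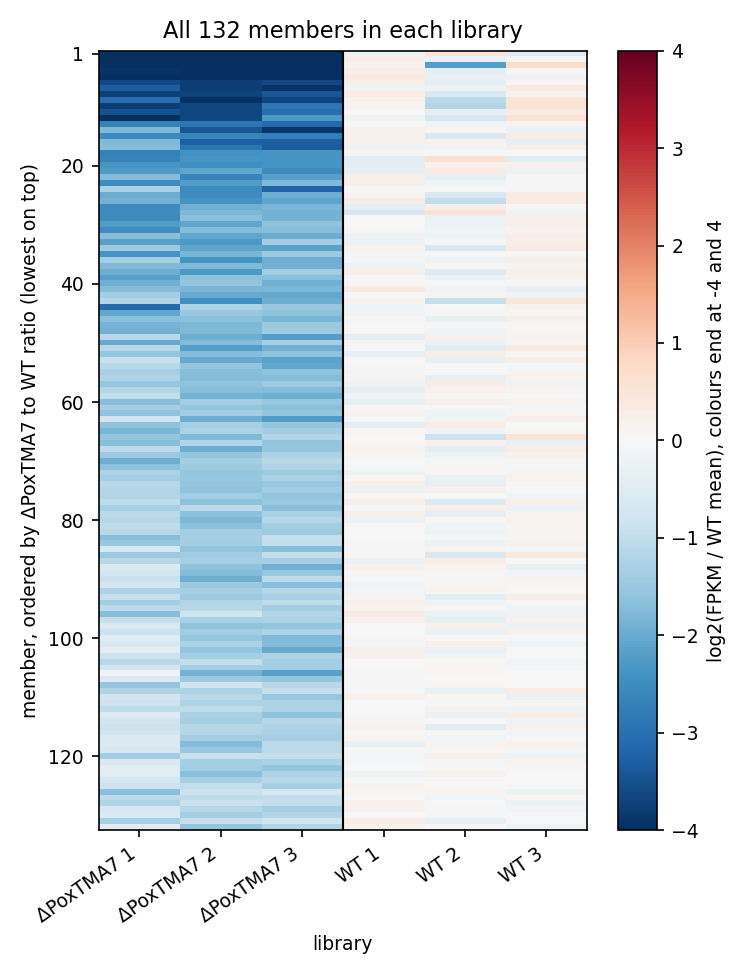
Each row is 1 of the 132 members, ordered by its ΔPoxTMA7 to WT ratio with the lowest on top, and each column is a library; colour gives log2 of FPKM over the WT mean of that gene, with colours ending at -4 and 4. The 3 ΔPoxTMA7 columns are blue or pale blue throughout, with replicate 1 the palest in many rows of the lower part, and the WT columns are near white except for a few rows in which WT replicate 2 is low.

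A limma fit on log2(FPKM + 1) covered the 6743 genes that reached 1 FPKM in 3 or more libraries. Of these, 48% differed between genotypes and 17.2% were lower in ΔPoxTMA7, at a Benjamini-Hochberg adjusted p under 0.05. All 132 members passed the filter of this fit, and all 132 were among the genes called lower. A log2 change of -1 or below together with such an adjusted p was found in 3.4% of tested genes and in 111 members. The rule used the same contrast, so nothing is read from the members' counts. The members' log2 changes ran from -4.79 to -0.82 with a median of -1.28, and the median over all tested genes was 0.11. The pseudocount pulls changes of low genes toward 0, which is why some members with a ratio of at most 0.5 have a log2 change above -1.

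The separation between genotypes varied widely among members. The lowest WT value was at least 2 times the highest mutant value in 59 members, and the median of this ratio was 1.85. In 3 members it was under 1.2. Of the 3690 genes of this WT range, 21.6% had all mutant values below all WT values, and 665 genes did so with a mutant mean over 0.5 times the WT mean, outside the member rule. Every mutant library stood at or below 0.5 times the WT mean in 84 of the 132 members.

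**Figure D2:**
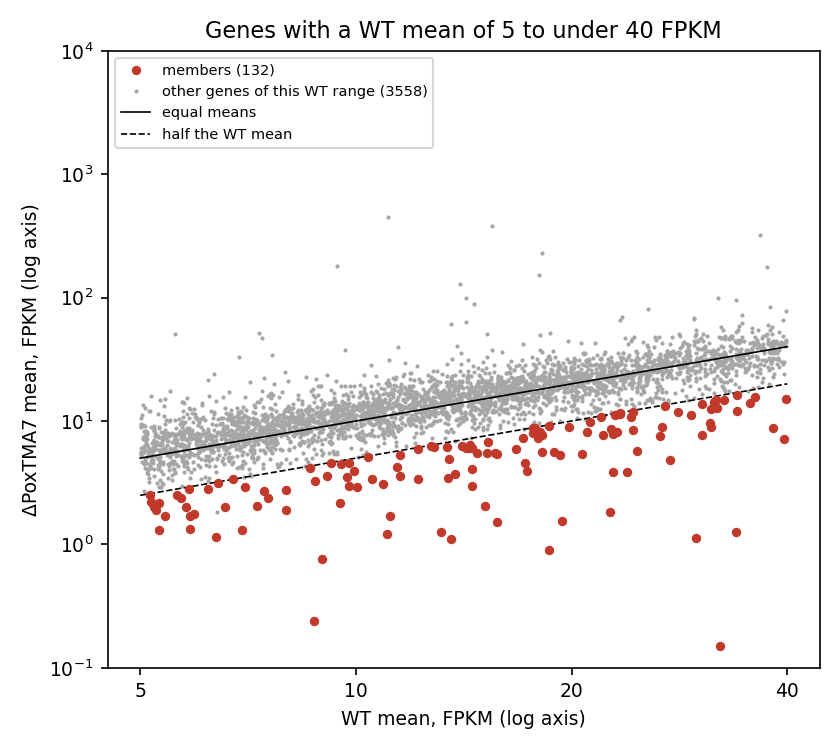
Mean FPKM in ΔPoxTMA7 against mean FPKM in WT, both on log axes, for genes with a WT mean of 5 to under 40 FPKM; red points are the 132 members, grey points the other 3558 genes, and lines mark equal means and 0.5 times the WT mean. Members lie at all WT levels of the range, most of them close under the dashed line, and 2 lie far below it with mutant means under 0.3 FPKM.

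Members were found at every WT level of the range. They made up 38 of 1316 genes with a WT mean of 5 to under 10 FPKM (2.89%), 51 of 1386 genes from 10 to under 20 FPKM (3.68%), and 43 of 988 genes from 20 to under 40 FPKM (4.35%). The median level kept in the mutant was 36.1%, 35.9% and 37.7% of WT in these 3 steps. Over all genes of each step it was 113.5%, 108.8% and 99.9%. Above the range, 90 of 1044 genes with a WT mean of 40 FPKM or more met the same ratio and separation conditions (8.62%), and below it 69 of 1809 genes with a WT mean of 1 to under 5 FPKM did (3.81%). These shares were not tested against each other. In the mutant, 66 members had a mean under 5 FPKM and 20 a mean of 10 FPKM or more.

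POX_4g05484 was the member with the lowest ratio. It stood at 0.152, 0.125 and 0.178 FPKM in ΔPoxTMA7 replicates 1, 2 and 3, against 28.1, 46.4 and 22.2 FPKM in WT replicates 1, 2 and 3. The mutant values rested on 7, 9 and 10 reads, whose exact Poisson 95% intervals span 0.0612 to 0.313, 0.057 to 0.237 and 0.0853 to 0.327 FPKM and cover counting error only. The means were 0.152 ± 0.0266 FPKM in ΔPoxTMA7 and 32.2 ± 12.6 FPKM in WT (SD, n = 3 each), a log2 change of -4.79 (SE 0.23). The lowest WT value was 125 times the highest mutant value, the widest separation among the members. Whether POX_4g05484 is the deleted gene cannot be told from the files.

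POX_3g04419 came next and was also close to silent in the mutant. Its values were 0.175, 0.202 and 0.338 FPKM in ΔPoxTMA7, against 10.5, 7.38 and 8.29 FPKM in WT. The mutant mean was 2.73% of the WT mean (log2 change -2.96, SE 0.13). POX_4g05484 and POX_3g04419 were the only members under 1 FPKM in every mutant library, and no member was unlisted in any library.

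The other 8 of the 10 lowest ratios kept 3.75% to 9.56% of the WT mean, with mutant means of 0.765 to 1.82 FPKM. POX_6g08584 had 1.99, 0.644 and 0.746 FPKM in ΔPoxTMA7 against 36.2, 22.5 and 30.7 FPKM in WT, and POX_5g06597 had 1.17, 0.732 and 0.801 FPKM in ΔPoxTMA7 against 23.5, 15.3 and 17.0 FPKM in WT. In both, ΔPoxTMA7 replicate 1 was the highest mutant library and WT replicate 1 the highest WT library. POX_6g08584 kept 3.78% of the WT mean with all 3 mutant libraries and 2.33% without ΔPoxTMA7 replicate 1.

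The mutant libraries spanned 1.12-fold in POX_4g05320, 1.55-fold in POX_3g03900 and 1.26-fold in POX_5g07658. POX_4g05320 stood at 1.59, 1.42 and 1.59 FPKM in ΔPoxTMA7 against 22.99, 15.1 and 20.1 FPKM in WT. POX_3g03900 stood at 2.30, 1.66 and 1.49 FPKM in ΔPoxTMA7 against 19.98, 19.6 and 28.3 FPKM in WT. POX_5g07658 stood at 1.01, 1.04 and 1.27 FPKM in ΔPoxTMA7 against 16.6, 8.83 and 15.3 FPKM in WT. The spread between WT libraries was the larger one in absolute terms in all 3 genes, and no mutant value came near a WT value.

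**Figure D3:**
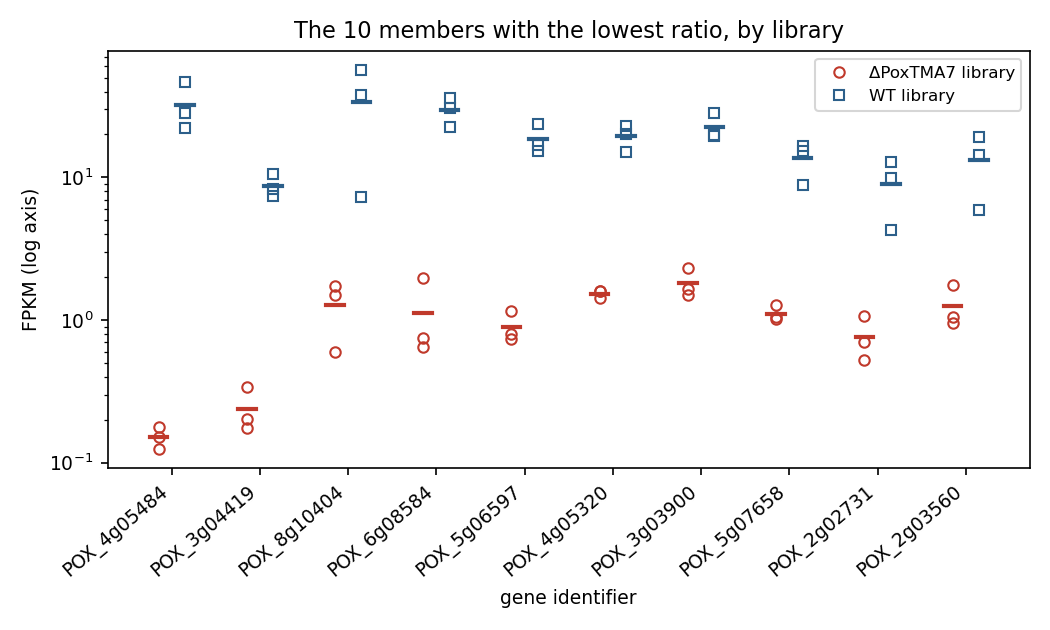
FPKM on a log axis of the 10 members with the lowest ΔPoxTMA7 to WT ratio; circles are ΔPoxTMA7 libraries, squares are WT libraries, and bars are the means of 3 libraries. POX_4g05484 and POX_3g04419 lie under 0.4 FPKM in the mutant, and POX_8g10404 shows the widest spread in WT, 7.30 to 56.9 FPKM.

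The remaining 3 of the 10, POX_8g10404, POX_2g02731 and POX_2g03560, were also the 3 members with the widest spread between WT libraries, and in each WT replicate 2 was the low one. POX_8g10404 had 1.72, 0.602 and 1.49 FPKM in ΔPoxTMA7 against 37.5, 7.30 and 56.9 FPKM in WT, a 7.79-fold range within WT. POX_2g02731 had 1.07, 0.522 and 0.698 FPKM in ΔPoxTMA7 against 9.84, 4.26 and 12.8 FPKM in WT. POX_2g03560 had 0.953, 1.06 and 1.76 FPKM in ΔPoxTMA7 against 14.5, 5.87 and 19.1 FPKM in WT. Even the low WT library stayed 4.24, 3.97 and 3.33 times above the highest mutant library in these genes.

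A WT replicate 2 at 0.5 times the mean of WT replicates 1 and 3 or lower was seen in 6 members, and in 11 of all 3690 genes of this WT range. Besides these 3 genes, they were POX_7g09541, a member near the median ratio, and POX_2g02882 and POX_5g06807, which were picked out after their values were seen. POX_5g06807 kept 29.5% of the WT mean with all 3 mutant libraries and 22.0% without ΔPoxTMA7 replicate 1. Without WT replicate 2 the mutant mean was 2.7% of WT in POX_8g10404 instead of 3.75%, and 7.49% instead of 9.56% in POX_2g03560. Across all members WT replicate 2 was the lowest WT library in 67 (50.8%), against 40.2% of all genes of this WT range, and the median over members of its level relative to the mean of the other WT libraries was 0.932, against 0.99 over the range. These shares were not tested.

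The members with the highest WT means showed that a similar WT level went with different mutant levels. POX_8g10476 stood at 6.13, 7.45 and 7.79 FPKM in ΔPoxTMA7 against 41.7, 37.8 and 39.3 FPKM in WT, or 18.0% of the WT mean (log2 change -2.33, SE 0.10). POX_6g07995 stood at 15.6, 13.8 and 16.1 FPKM in ΔPoxTMA7 against 42.3, 33.4 and 43.6 FPKM in WT, or 38.1% (log2 change -1.33, SE 0.12). POX_2g02881 stood at 18.8, 13.2 and 14.7 FPKM in ΔPoxTMA7 against 38.7, 26.5 and 42.8 FPKM in WT, or 43.3%. In POX_8g10476 the genotypes were 4.86-fold apart at their nearest values, against 2.08-fold in POX_6g07995 and 1.41-fold in POX_2g02881.

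POX_2g02132, the remaining one of the 4 highest, differed from these in its mutant libraries. It had 15.6, 6.49 and 4.08 FPKM in ΔPoxTMA7 against 37.9, 37.1 and 39.5 FPKM in WT. The 3 WT libraries agreed within 1.07-fold, whereas the mutant libraries spanned 3.82-fold, with replicate 1 the highest. It kept 22.8% of the WT mean with all 3 mutant libraries and 13.9% without ΔPoxTMA7 replicate 1. Its log2 change of -2.19 had an SE of 0.37, against 0.10 for POX_8g10476.

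Members near the median ratio were POX_7g09541, POX_7g09841 and POX_5g06640. POX_5g06640 had 2.73, 4.06 and 3.67 FPKM in ΔPoxTMA7 against 10.2, 8.77 and 10.2 FPKM in WT. POX_7g09841 had 1.61, 2.35 and 1.75 FPKM in ΔPoxTMA7 against 5.54, 5.88 and 4.38 FPKM in WT. In both, ΔPoxTMA7 replicate 1 was the lowest mutant library. POX_7g09541 had 2.56, 2.19 and 3.30 FPKM in ΔPoxTMA7 against 7.60, 4.07 and 10.7 FPKM in WT, so that its low WT replicate 2 was 1.23 times the highest mutant value. In limma it no longer passed without ΔPoxTMA7 replicate 2 (adjusted p = 0.0509).

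Within the mutant, replicate 1 was most often the library nearest to WT. It was the highest mutant library in 77 of the 132 members (58.3%), replicate 3 in 34 and replicate 2 in 21. Over all 3690 genes of this WT range replicate 1 was the highest in 33.0% and replicate 3 in 56.3%. Among the 90 genes with a WT mean of 40 FPKM or more that met the same conditions of fall, replicate 1 was the highest in 73 (81.1%). The median member stood at 39.3%, 32.3% and 34.0% of the WT mean in ΔPoxTMA7 replicates 1, 2 and 3. At most 0.5 times the WT mean was reached by 96 members in replicate 1, 124 in replicate 2 and 123 in replicate 3. These shares describe the libraries and were not tested.

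**Figure D4:**
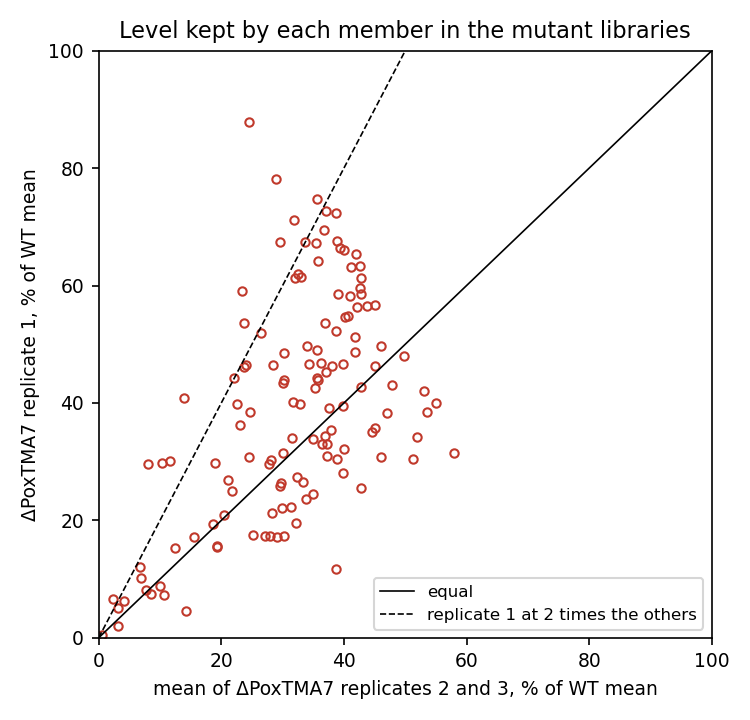
For each of the 132 members, the level in ΔPoxTMA7 replicate 1 is plotted against the mean of ΔPoxTMA7 replicates 2 and 3, both as a percentage of the WT mean; the solid line marks equal levels and the dashed line replicate 1 at 2 times the others. Points lie on both sides of the solid line, most of them above it, and 13 lie above the dashed line.

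A replicate 1 at least 2 times the mean of the other mutant libraries was seen in 13 members and in 42 of the 3690 genes. POX_5g07498 had 3.32, 1.04 and 0.749 FPKM in ΔPoxTMA7 replicates 1, 2 and 3, against 12.5, 11.8 and 9.25 FPKM in WT, the widest spread between mutant libraries among the members at 4.43-fold. It kept 15.2% of the WT mean with all 3 mutant libraries and 7.99% without replicate 1. POX_1g00770 had 11.8, 3.62 and 2.96 FPKM in ΔPoxTMA7 against 12.7, 14.2 and 13.3 FPKM in WT. Its replicate 1 thus lay just under the WT values while replicates 2 and 3 were far below them. It kept 45.7% of the WT mean in all and 24.6% without replicate 1, and in limma it lost the threshold without ΔPoxTMA7 replicate 2 (adjusted p = 0.114), without ΔPoxTMA7 replicate 3 (adjusted p = 0.113) and without any single WT library (adjusted p = 0.0739 to 0.0837).

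In 2 members the order was the opposite, with a replicate 1 at 0.5 times the mean of the others or lower. POX_6g08694 had 0.514, 0.887 and 2.25 FPKM in ΔPoxTMA7 against 9.94, 6.81 and 16.4 FPKM in WT, where replicate 3 was the highest library of both genotypes. Its mutant value in replicate 1 rested on 17 reads, with an exact Poisson 95% interval of 0.299 to 0.823 FPKM. POX_6g08694 kept 11.03% of the WT mean in all and 14.2% without ΔPoxTMA7 replicate 1. The other, POX_4g06414, was picked out after its values were seen, and it had 0.693, 2.51 and 2.08 FPKM in ΔPoxTMA7 against 5.32, 5.91 and 6.59 FPKM in WT, or 29.6% of the WT mean in all and 38.6% without replicate 1.

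The spread between libraries exceeded counting error in most members. The median SD between libraries was 23.1% of the mean in ΔPoxTMA7 and 14.0% in WT, against median counting SDs of 6.11% and 3.68% at the reads recovered. Over all 3690 genes of this WT range the median SD between libraries was 10.5% in ΔPoxTMA7 and 5.72% in WT, against median counting SDs of 3.21% and 3.62%. The SD exceeded the counting SD in 124 members (93.9%) in ΔPoxTMA7 and in 123 members (93.2%) in WT. Over the 3690 genes it did so in 3457 (93.7%) in ΔPoxTMA7 and in 2739 (74.2%) in WT. A member had a median of 254 to 308 reads in the mutant libraries and 599.5 to 831.5 reads in the WT libraries. At least 100 reads in every library were recovered for 104 members, and under 20 in some library for 3, POX_4g05484, POX_3g04419 and POX_6g08694.

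Some members had consecutive identifiers. Counting members only, there were 4 such pairs and no run of 3 or more. Falling neighbours outside the WT range are given further below. That identifiers follow the order of genes on the chromosomes is assumed here and is not stated in the files. POX_4g05483, next to POX_4g05484, had 0.995, 1.24 and 1.23 FPKM in ΔPoxTMA7 against 4.75, 9.67 and 4.74 FPKM in WT, or 18.1% of the WT mean. Both genes of this pair were highest in WT replicate 2.

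POX_8g10405, next to POX_8g10404, had 4.34, 2.08 and 2.83 FPKM in ΔPoxTMA7 against 10.5, 9.47 and 12.7 FPKM in WT. WT replicate 2 was the lowest WT library in both genes, but the WT libraries agreed within 1.35-fold in POX_8g10405, against a 7.79-fold range in POX_8g10404. Both were lowest in the mutant in replicate 2. POX_2g02133, next to POX_2g02132, had 1.96, 1.89 and 2.16 FPKM in ΔPoxTMA7 against 5.00, 7.17 and 5.20 FPKM in WT, with none of the mutant spread of POX_2g02132. The fourth pair, POX_2g02881 and POX_2g02882, shared a low WT replicate 2, and POX_2g02882 stood at 6.64, 4.71 and 5.70 FPKM in ΔPoxTMA7 against 30.1, 12.5 and 31.5 FPKM in WT.

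The gene lengths implied by the FPKM values bear on such pairs. They had a median of 3720 bp in members and 4102 bp in genes of the same WT range, and the shortest implied length of a member was 2177 bp. Protein-coding genes of the RefSeq table had a median length of 1360 bp, and 78.2% of them were shorter than 2177 bp. Counting windows longer than genes can share reads with a neighbour, and the part of this in the paired members was not tested. Listed neighbours that were no members were counted once per member, 232 in all. POX_2g03656 is therefore counted for both POX_2g03655 and POX_2g03657. Of the 232 neighbours, 170 had a WT mean of at least 1 FPKM. These kept a median of 102.0% of WT, against 107.6% over all 6543 genes at that level. Of the 170, 10 (5.88%) met the ratio and separation conditions, against 291 of the 6543 (4.45%). The 291 include the 132 members, whereas the neighbours leave members out, so the shares are not alike. Without members the share among the 6543 would be lower. The shares were not tested. The 10 falling neighbours lay outside the WT range and kept 2.42% (POX_3g04418, next to POX_3g04419) to 47.6% (POX_4g05319, next to POX_4g05320) of WT. Among them were POX_5g06596 (4.13%), next to POX_5g06597, and POX_7g09863 (13.4%), next to POX_7g09862.

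Members occurred in all 8 large identifier groups, given by the number before the letter g. They were 2.46% of the genes of this WT range in group 5 and 5.32% in group 8, the lowest and the highest share. Spans of 50 identifier numbers starting at each member were also counted, a view chosen after the values were seen and not tested. The 49 numbers after a member held a mean of 0.803 other members, and those after any listed gene a mean of 0.597 members. At least 3 were held after 8 members (6.06%) and after 2.86% of all listed genes. These 8 spans of 4 or more members overlap and cover 4 separate stretches of identifiers.

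The span with most members ran from POX_7g09831 to POX_7g09878 and held 6 of them among 20 genes of the WT range and 43 listed genes. Its lowest member by ratio, POX_7g09862, had 1.39, 1.24 and 1.91 FPKM in ΔPoxTMA7 against 15.5, 12.1 and 19.6 FPKM in WT. The other 5 kept 22.6% (POX_7g09831), 36.1% (POX_7g09841), 25.9% (POX_7g09848), 25.9% (POX_7g09852) and 39.8% (POX_7g09878) of the WT mean. In the same span 4 of the 43 listed genes were at least 2 times higher in ΔPoxTMA7, every mutant value lying above every WT value and the WT mean reaching 1 FPKM, as were 3.71% of all 9137 listed genes.

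A second span, from POX_6g07946 to POX_6g07995, held 5 members among 19 genes of the WT range, together with 9 such higher genes among 47 listed. The other separate stretches, with members from POX_2g03181 to POX_2g03207 and from POX_5g06594 to POX_5g06640, held 4 members and 0 such higher genes each. In the second span, POX_6g07946, POX_6g07958 and POX_6g07980 kept 37.1%, 26.6% and 31.5% of the WT mean. In POX_6g07987 replicate 1 again stood apart, with 18.9, 9.22 and 7.40 FPKM in ΔPoxTMA7 against 31.0, 30.3 and 22.99 FPKM in WT. It kept 42.2% of the WT mean with all 3 mutant libraries and 29.6% without replicate 1.

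The limits of the rule cut through gradual differences. At the ratio limit, POX_6g08560 (mutant 12.8, 5.94 and 7.76 FPKM, WT 19.3, 17.9 and 15.8 FPKM) and POX_1g01132 (mutant 2.69, 3.56 and 3.85 FPKM, WT 8.09, 5.49 and 6.61 FPKM) were the last members inside, both with a ratio of 0.4999. POX_5g07526 at 0.5001 and POX_5g07671 at 0.502 were the first genes outside.

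At the lower WT limit, POX_5g07877 (WT mean 5.16 FPKM) and POX_6g08166 (5.18 FPKM) were inside. POX_2g03349, with a WT mean of 4.83 FPKM and a ratio of 0.146, was outside, as was POX_2g02205 at 4.65 FPKM. At the upper limit, POX_6g07995 (39.8 FPKM) and POX_8g10476 (39.6 FPKM) were inside, and POX_1g00720 (40.8 FPKM) and POX_2g03067 (41.1 FPKM, ratio 0.159) outside.

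Of the 3690 genes, 135 (3.66%) had a ratio of at most 0.5, and the separation condition removed 3 of them. Among members, the narrowest separation was that of POX_5g06811, with 24.7, 10.5 and 7.79 FPKM in ΔPoxTMA7 against 36.8, 26.2 and 31.9 FPKM in WT. It kept 45.3% of the WT mean with all 3 mutant libraries and 29.0% without ΔPoxTMA7 replicate 1. In limma it lost the threshold when any 1 of 4 libraries was left out: ΔPoxTMA7 replicate 2 (adjusted p = 0.0816), ΔPoxTMA7 replicate 3 (adjusted p = 0.0739), WT replicate 1 (adjusted p = 0.0749) or WT replicate 3 (adjusted p = 0.0643). POX_7g09861, with 7.12, 1.58 and 3.93 FPKM in ΔPoxTMA7 against 6.49, 12.4 and 7.28 FPKM in WT, was the nearest gene outside, since ΔPoxTMA7 replicate 1 exceeded WT replicate 1. By identifier, POX_7g09861 is next to the member POX_7g09862. In POX_3g04870, with 4.22, 0.612 and 0.696 FPKM in ΔPoxTMA7 against 3.40, 13.0 and 2.85 FPKM in WT, ΔPoxTMA7 replicate 1 exceeded both WT replicates 1 and 3.

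The size of the set moved with the scaling and with ΔPoxTMA7 replicate 1. The rule gave 182 genes after median-ratio scaling, 129 of them members as reported, and 164 after quantile normalization, all 132 members among them. Without ΔPoxTMA7 replicate 1 it gave 196 genes, 126 of them members as reported, which is 95.5% of the members and 64.3% of the 196.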

How the data were processed

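The deposited tables, 1 per library, held a gene identifier and its FPKM, which the authors had computed, per the file headers. The submitters' processing notes name bcl2fastq; aligner, counting tool, genome build, annotation and strandedness were not given in the sources used here. Tables were joined by identifier, and an absent identifier was set to 0. Reads were recovered from the deposited FPKM: low genes (under 0.15 FPKM) gave the ratios of library totals, and the total was searched that makes implied lengths whole (within 0.02 bp for 99.2% of 794 genes); recovered reads summed to 99.6% to 99.7% of the totals. All 132 members had whole reads within 0.02. At the members' median length, 3 reads were 0.0388 to 0.0691 FPKM.

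The 6743 genes that reached 1 FPKM in 3 or more libraries were fitted with limma 3.58.1 in R 4.3.3 on log2(FPKM + 1), with genotype as the only term and trended empirical Bayes moderation; two-sided p-values were adjusted by Benjamini-Hochberg over all of them. Fold changes on this scale understate low genes. Other values used Python 3.11.15, NumPy 2.4.6, pandas 2.3.3 and SciPy 1.17.1. The fit, the rule and the recovery of reads were tested on simulated data. The members and the rule for naming genes were chosen with earlier results of these data known. Named members were the 10 lowest ratios, the 4 highest WT means, the 3 nearest the median ratio, the 3 widest in each genotype, the 3 pairs of consecutive identifiers with the lowest ratios and the 2 members at each limit; others are said to be picked out later. Alternatives were other pseudocounts, filters and scalings, a replicate block and leaving out each library. No list of gene functions was used, since identifiers carry no names, and no sequence is shown for the same reason.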

Additional observations from a re-analysis of the deposited data

How the results depend on the processing

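The count of genes lower in ΔPoxTMA7 over the whole table, 1163 as reported, was 1758 with median-ratio scaling, 747 to 1461 when 1 library was left out (lowest without WT replicate 3, 768 without WT replicate 1), and the count of changed genes, 3238 as reported, was 2152 to 3733 (lowest without WT replicate 3). The cause was not tested. The other 60 recomputed counts and medians stayed within 1.5 times, or within the spread between mutant libraries, of the reported value. Members that passed the limma threshold numbered 132 with a pseudocount of 0.1, both other scalings, no filter or the replicate block, 119 with the filter at 5 FPKM, which 119 members passed, and 128 to 132 when 1 library was left out. Without 1 WT library, 130 members passed the filter and could be tested. The rule used the same contrast, so nothing is read from these counts of members. Among all tested genes, 1162 of 6743 were lower with a pseudocount of 0.1 and 1198 of 9137 with no filter. Median-ratio scaling gave 1758 of 6735 and quantile normalization 1444 of 6734. The replicate block gave 1094 of 6743 and the filter at 5 FPKM 994 of 4942. Leaving out 1 library gave 747 of 6689 (WT replicate 3) to 1461 of 6577 (ΔPoxTMA7 replicate 1). The members' median level was 32.5% to 37.7% of WT over all settings. The number of members was 119 to 196 when 1 library was left out. Except after rescaling, no member could change sign, because the rule put every mutant value below every WT value. Of 324 recomputed changes of named members none changed sign, and 10 lost the threshold, all on leaving out 1 library. These were in POX_7g09541, POX_1g00770 and POX_5g06811. A further 12 changes were not computed, because the member failed the filter at 5 FPKM or, with a WT library left out, the filter of the fit. The latter held for POX_4g05484 and POX_3g04419, so their changes were not tested without a WT library. With the replicate block 2995 genes were changed, 1094 of them lower. Deviations of equally numbered libraries correlated at 0.0219, 0.0328 and 0.173. Of 3 WT libraries 2 correlated best with their own number, as did 2 of 3 ΔPoxTMA7 libraries. These values do not settle whether equal numbers mark pairs, and the main fit did not treat them as pairs. Depth limits values under about 0.0691 FPKM, 3 reads in the shallowest library.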
